A study of Mus musculus with 4 samples.

Results

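The angiotensin II effect in stroke mice was read from 12 of the 24 libraries of the study, by setting 6 HT + Stroke libraries against 6 NT + Stroke libraries over all genes. RNA came from a coronal brain section that held the prefrontal cortex of male C57BL/6J mice aged 3 to 5 months. HT mice carried a subcutaneous osmotic pump that delivered 0.28 mg of angiotensin II per kg and day, NT mice a pump with saline, and both groups were culled on day 28. All mice of both groups had a photothrombotic stroke on day 7, in which the dye Rose Bengal is lit through the skull so that clots form in the cortical vessels below. The sham groups, used here beside the main comparison, had the same pumps and the same surgery without the light. The comparison asks what the hypertensive agent did to brain gene expression on day 28, with the stroke placed on day 7. The labels hold 1 record per group and the table numbers 6 libraries under each. Neither the labels nor the study's methods tie these columns to separate mice in so many words, so P values measure only the spread between these libraries, part of which may be technical. The table of these groups lists 31883 of the 33741 genes listed in this table or that of the sham groups, and 17008 had enough counts to test. HT + Stroke libraries held 15922862 to 20621425 counts and those of NT + Stroke 16035909 to 24865918.

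Angiotensin II is the effector peptide of the renin-angiotensin system. It constricts vessels and promotes aldosterone release through the AT1 receptor, while the AT2 receptor, encoded by Agtr2, largely opposes these actions. An infused peptide also acts on vessel walls, kidney and brain nuclei directly, so pressure and peptide cannot be told apart in this model. A cortical infarct a few weeks old holds foamy macrophages, reactive astrocytes around its rim and a fibrotic core. Neurons respond to firing within minutes by transcribing immediate early genes such as Fos, Npas4 and Arc, in part through the factor CREB bound to cAMP response elements.

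3 libraries went against their labels in the genes that mark an infarct. A list of 20 genes of macrophages, reactive astrocytes and scar was read as a mean of log2(CPM + 1), where CPM is the count scaled to library size, here by TMM over all 24 libraries. It was 4.97 to 6.51 in the 6 NT + Stroke libraries and 5.29 to 6.75 in HT + Stroke libraries 2 to 5. It was 3.68 in library 1 and 3.72 in library 6 of HT + Stroke. Sham libraries lay at 2.97 to 3.26, except HT + Sham library 6 at 4.93. Cd5l, a macrophage survival protein that was among the 10 most variable genes of the stroke libraries, was 0.404 and 0.578 CPM in HT + Stroke libraries 1 and 6. It was 2.77 to 88.2 CPM in the other 10 stroke libraries, 13.8 CPM in HT + Sham library 6 and at most 0.381 CPM in the other sham libraries. Gfap, the intermediate filament of reactive astrocytes, was 253 and 232 CPM in HT + Stroke libraries 1 and 6 and 607 to 1360 CPM in the other 10 stroke libraries. These libraries were kept under their labels. Values without HT + Stroke 1 and 6 are given for many results but not all. The libraries were picked out on the injury genes, so those genes without them are a description.

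**Figure D1:**
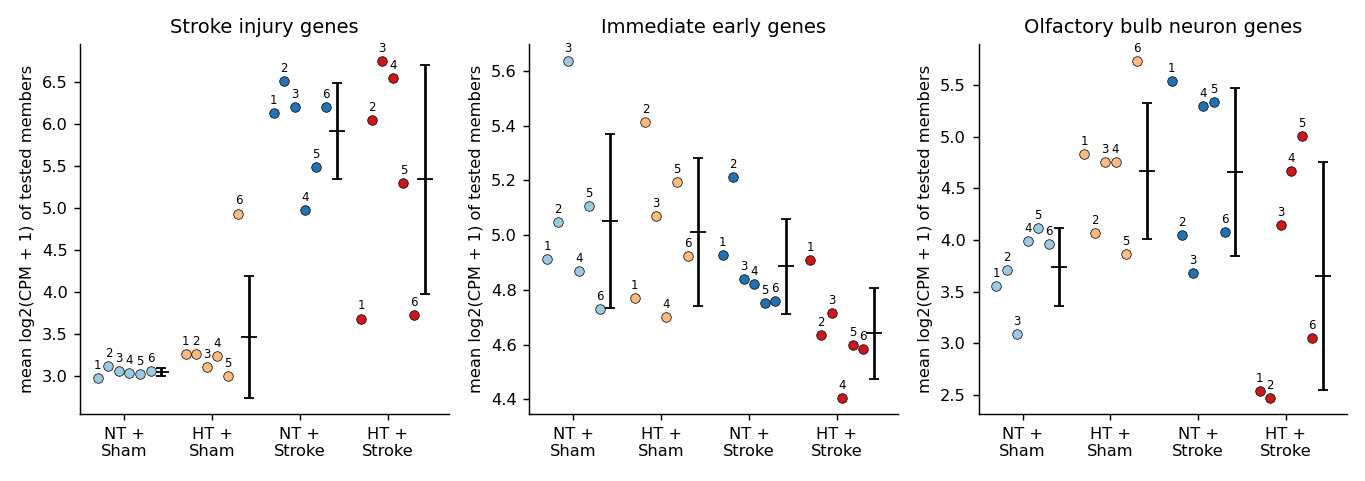
Mean log2(CPM + 1) of the stroke injury, immediate early and olfactory bulb lists in each of the 24 libraries, with the mean and SD of each group of 6. HT + Stroke libraries 1 and 6 lie at 3.68 and 3.72 on the injury panel, below the 4.97 to 6.51 of NT + Stroke, and HT + Sham library 6 lies above every other sham library.

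The libraries also differed in the brain regions and neighbouring tissue they held. Olfactory bulb neuron genes, all 7 of 7 tested and detected in every stroke library, summed to 45.6, 45.1, 167, 278, 354 and 74.3 CPM in HT + Stroke against 470, 154, 122, 428, 406 and 163 CPM in NT + Stroke. Library 2 of HT + Stroke thus held few bulb transcripts as well as libraries 1 and 6. Striatal neuron genes, 8 of 8 tested with none at 0, summed to 886 to 2602 CPM in HT + Stroke against 485 to 2085 CPM in NT + Stroke. The markers of cortical projection neurons, the labelled tissue, were present throughout and summed to 421 to 544 CPM against 426 to 480 CPM. Nasal epithelium genes summed to 443.9 CPM in HT + Stroke library 3, with 1 of the 10 genes at 0, and to 2.62 to 77.8 CPM in the other 11 stroke libraries, with 1 to 5 at 0. Skeletal muscle transcripts stood out in HT + Stroke library 6, where Acta1, the muscle actin, was 82.6 CPM against 8.56 to 17.1 CPM in the other 11. In bulk tissue, fewer cells of a type and less RNA per cell cannot be told apart. The first principal component of the 12 libraries carried 39.1% of the variance and placed HT + Stroke libraries 1 and 6 at one end (-44.9 and -36.9) and HT + Stroke library 3 at the other (33.6).

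Across all genes, 0 of 17008 had an adjusted P under 0.05 in edgeR's quasi-likelihood test (0%), and the smallest adjusted P, by the Benjamini-Hochberg method, was 0.654. At an unadjusted P under 0.05, 569 genes were higher in HT + Stroke (3.35% of genes tested) and 661 were lower (3.89%). DESeq2 gave 0 adjusted and 1531 unadjusted, and limma voom with quality weights 0 and 2513. Without scaling beyond library size, 312 were higher and 1006 lower, so that 23.7% of the genes at that threshold were higher instead of 46.3%. Fold changes were small. The median absolute log2 fold change was 0.09 over the 14206 genes with an average log2 CPM above 1. Of 55 genes beyond 2-fold, 30 were above that level. The median half-width of the 95% interval was 0.21 on the log2 scale for those 14206 genes. The whole interval lay within 1.5-fold for 85.4% of them and within 2-fold for 96.6%, so a larger mean difference between these groups fell outside the interval of most expressed genes. Groups did not overlap for 7 genes that were higher (0.0412% of genes tested) and 19 that were lower (0.112%).

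**Figure D2:**
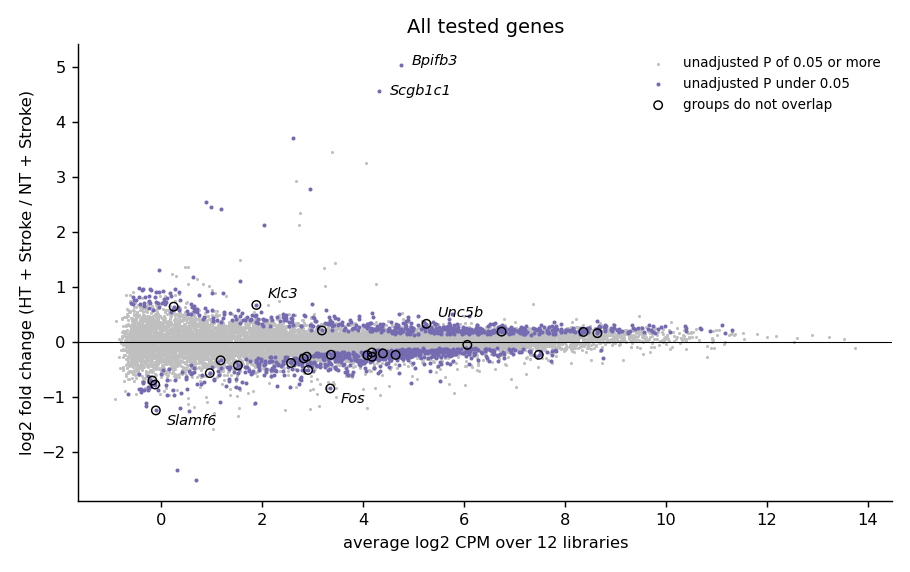
Log2 fold change of HT + Stroke over NT + Stroke against average log2 CPM for all 17008 tested genes, each a point. Purple points have an unadjusted P under 0.05 (569 higher and 661 lower), open circles mark the 26 genes whose groups do not overlap, and Bpifb3 and Scgb1c1 at the top are high in HT + Stroke library 3 alone.

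Immediate early genes leaned lower in HT + Stroke. Of 17 immediate early genes, all tested, 16 had a lower mean in HT + Stroke and 4 of these had an unadjusted P under 0.05, against 3.89% of all genes. Their median log2 fold change was -0.27, beside -0.01 over all 17008 genes. None passed adjustment. Fos (chr12:85473890-85477273), a subunit of the AP-1 factor and the classic marker of recently active neurons, was 7.16, 5.14, 10.3, 4.69, 8.69 and 7.00 CPM in HT + Stroke. It was 14.4, 19.2, 12.1, 10.6, 10.6 and 11.3 CPM in NT + Stroke. Every HT + Stroke library lay below every NT + Stroke library, and the means were 7.17 ± 2.12 and 13 ± 3.33 CPM (SD, n = 6 per group, log2 fold change -0.85, SE 0.197, 95% interval -1.27 to -0.43, edgeR adjusted P = 0.654). Libraries 1 and 6, low in injury genes, sat among the others. Of all 17008 genes tested, 19 (0.112%) were likewise lower with no overlap.

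Npas4 (chr19:4984355-4989971), a factor induced by calcium entry that tunes inhibitory synapses, was 11.7, 10.7, 15.3, 14.5, 14.5 and 11.9 CPM in HT + Stroke against 17, 20.9, 14.1, 16.5, 19.3 and 17.5 CPM in NT + Stroke. Only NT + Stroke library 3 lay within the HT + Stroke range (log2 fold change -0.42, SE 0.111, edgeR adjusted P = 0.654). Fosl2 (chr5:32135801-32157842), another AP-1 subunit, was 13.6 to 21.0 CPM against 16.5 to 27.8 CPM (log2 fold change -0.31). Dusp1 (chr17:26505590-26508519), a phosphatase that shuts off MAP kinases, was 16.8 to 24.7 CPM against 21.8 to 30.3 CPM (log2 fold change -0.27). Arc, which drives removal of AMPA receptors from synapses, and the nuclear receptor Nr4a1 had log2 fold changes of -0.53 and -0.45 without reaching the unadjusted threshold. HT + Stroke library 1 held 123 CPM of Arc and 85.6 CPM of Nr4a1, while the other 5 libraries of its group held at most 59.8 and 60.9 CPM. Egr3 was the member with a higher mean (log2 fold change 0.09), and Fosb, Ier2, Btg2, Egr4 and Homer1 had log2 fold changes of -0.05 to -0.01.

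Without HT + Stroke libraries 1 and 6 the median of the list was -0.29 and 7 members were lower at an unadjusted P under 0.05, as were 465 of all 17421 genes tested in that fit. With the olfactory bulb score as a covariate it was -0.30 with 8 members, beside 260 of 17008 genes. The list median was negative in all 24 alternatives that gave a value, between -0.33 and -0.19. These alternatives share libraries, so they are not independent of each other. In sham mice, which share no library with this comparison, the median of the same genes was -0.09. Summed, the 17 genes were 519 to 872 CPM in HT + Stroke, 666 to 1005 CPM in NT + Stroke, 649.5 to 1240 CPM in HT + Sham and 720 to 1422 CPM in NT + Sham.

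**Figure D3:**
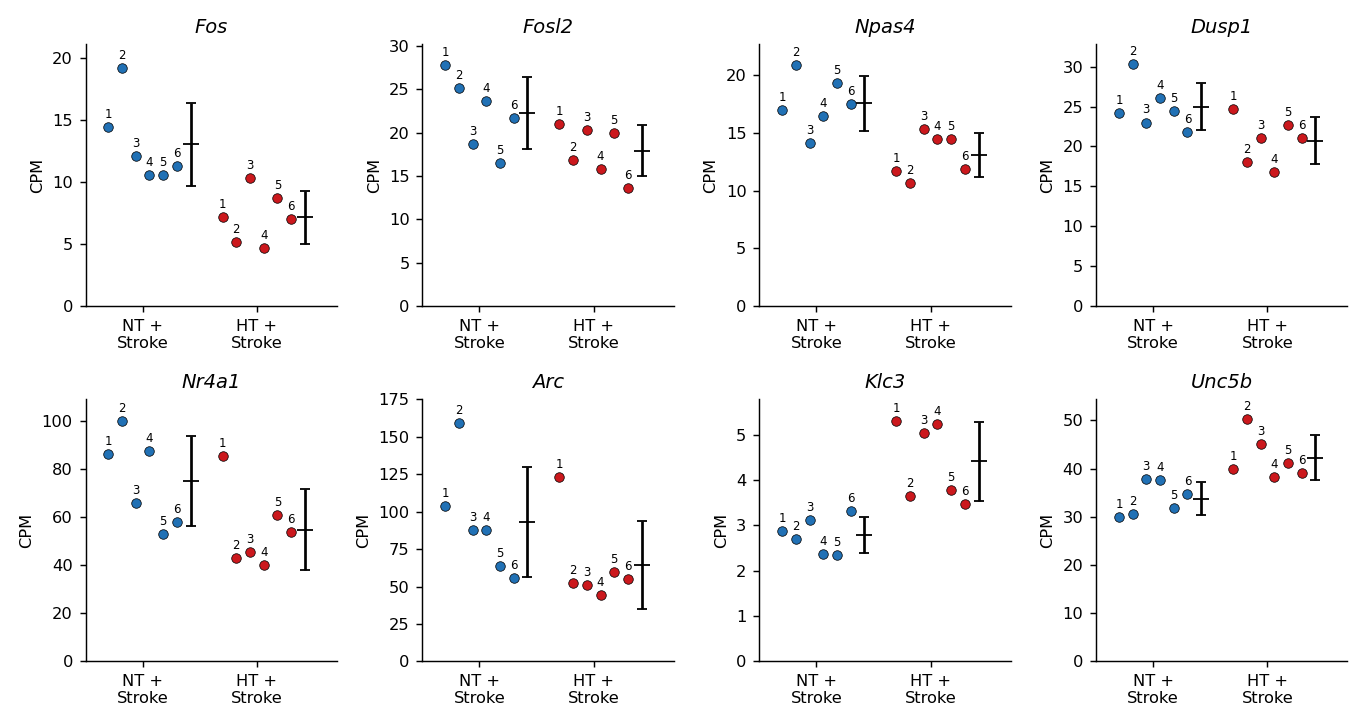
CPM of Fos, Fosl2, Npas4, Dusp1, Nr4a1, Arc, Klc3 and Unc5b in the 6 HT + Stroke and 6 NT + Stroke libraries, each a point, with the mean and SD of each group. The groups are apart for Fos, Klc3 and Unc5b and overlap for the other 5 genes.

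The DNA ahead of these genes is shown because cAMP response elements, the sites of CREB, can lie there. RefSeq's 250 bases before the start of transcription on GRCm38.p6 were read for 13 of the 17 genes. The capitals mark the core of the cAMP response element, TGACG on either strand, and the full palindrome TGACGTCA, which contains it on both strands. Windows of the 4 genes with an unadjusted P under 0.05 follow, from chr12:85473640-85473889 on the plus strand, chr19:4989972-4990221 on the minus strand, chr17:26508473-26508722 on the minus strand and chr5:32136222-32136471 on the plus strand, each 5′ to 3′ as transcribed.
Fos: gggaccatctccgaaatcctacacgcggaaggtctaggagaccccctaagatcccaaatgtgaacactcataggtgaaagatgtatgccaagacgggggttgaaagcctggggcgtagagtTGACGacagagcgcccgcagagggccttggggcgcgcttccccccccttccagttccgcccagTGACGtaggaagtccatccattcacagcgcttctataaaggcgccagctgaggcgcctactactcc
Npas4: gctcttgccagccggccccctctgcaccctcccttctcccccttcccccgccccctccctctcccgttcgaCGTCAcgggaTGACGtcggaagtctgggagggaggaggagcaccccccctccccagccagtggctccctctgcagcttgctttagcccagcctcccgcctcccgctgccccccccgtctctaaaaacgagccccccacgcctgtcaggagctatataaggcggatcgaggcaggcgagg
Dusp1: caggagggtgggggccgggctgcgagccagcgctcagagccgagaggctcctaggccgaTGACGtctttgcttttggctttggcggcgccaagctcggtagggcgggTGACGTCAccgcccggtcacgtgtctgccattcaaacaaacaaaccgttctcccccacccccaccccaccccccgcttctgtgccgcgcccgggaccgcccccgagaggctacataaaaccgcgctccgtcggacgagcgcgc
Fosl2: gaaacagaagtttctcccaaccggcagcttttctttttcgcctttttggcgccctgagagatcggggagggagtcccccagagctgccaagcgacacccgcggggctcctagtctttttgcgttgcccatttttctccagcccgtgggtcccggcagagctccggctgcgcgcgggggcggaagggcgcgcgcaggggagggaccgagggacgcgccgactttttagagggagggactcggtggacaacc
Fos held 2 cores, 129 to 125 and 66 to 62 bases before the start. Npas4 also held 2, Dusp1 held 3 of which 2 form the full palindrome, and none was in this window of Fosl2, which ends at RefSeq's start for that gene and lies inside the longer span of the table, so bases ahead of the table's start were not read. A core was in the window of 11 of the 13 genes, against 19.8% of 27025 genes with such a window. The full palindrome was in those of Dusp1 and Btg2, against 1.77% of genes. The CArG box, the site of serum response factor, was found among these genes only in windows of Egr2, against 1.62%. Arc, Egr1, Egr3 and Ier2 were not read, nor was DNA beyond these windows, so sites there are not known from this reading. These matches describe the letters of the windows and say nothing of binding in these mice.

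Over all genes, those with no overlap between the groups, an average log2 CPM above 1 and an unadjusted P under 0.05 were few, with 6 higher and 14 lower in HT + Stroke, Fos among the latter. None of these passed adjustment. They were picked for that lack of overlap, so it adds no evidence of its own. Klc3 (chr7:19394437-19404104), a kinesin light chain that couples cargo to the motor, was 5.31, 3.64, 5.05, 5.23, 3.78 and 3.47 CPM in HT + Stroke. It was 2.87, 2.70, 3.12, 2.36, 2.34 and 3.31 CPM in NT + Stroke (a log2 fold change of 0.67, SE 0.159), and the gap between the groups was narrow. Unc5b (chr10:60762593-60831581), a netrin receptor of axons and endothelium, was 39.9, 50.3, 45.1, 38.2, 41.2 and 39.1 CPM against 30.0, 30.5, 37.8, 37.7, 31.9 and 34.8 CPM (log2 fold change 0.32, SE 0.0838). The lowest HT + Stroke value and the highest NT + Stroke value nearly touched. The other 4 higher genes differed by less. They were Ccdc159 (0.20), the endosomal recycling gene Rab11fip5 (0.18), the presynaptic scaffold Tspoap1 (0.18) and the stress factor Nfe2l1 (0.15), all as log2 fold changes.

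Of the 14 lower genes, Fos had the largest difference and Itih2 the next. Itih2 (chr2:10094593-10131396), a heavy chain that binds hyaluronan in matrix, was 4.73, 6.42, 6.73, 7.12, 6.90 and 4.56 CPM in HT + Stroke against 8.72, 9.67, 7.51, 10.9, 7.67 and 7.82 CPM in NT + Stroke (a log2 fold change of -0.52, SE 0.142). Libraries 1 and 6 were the lowest of HT + Stroke, and without them the log2 fold change was -0.36. Folh1 (-0.43), a peptidase that cleaves the transmitter NAAG, the helicase gene Mcm9 (-0.39), Gm38309 (-0.34), the sodium/proton exchanger Slc9a2 (-0.31) and the histone chaperone Nasp (-0.28) followed. Tmem67 (-0.27), a protein of the ciliary transition zone, Wdr43 (-0.25), of ribosome assembly, and AI464131 (-0.24) were the others of the 10 named. Lysmd3, among the 3 genes with the smallest P, was 4.53 to 6.70 CPM against 6.67 to 9.62 CPM, so that the groups overlapped by a single pair of libraries (log2 fold change -0.51, SE 0.122). In sham mice the log2 fold changes of Fos, Klc3, Unc5b, Itih2 and Lysmd3 were -0.04, -0.25, 0.09, 0.19 and 0.05.

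Myelin genes leaned higher. Of 11 tested, 8 had a higher mean in HT + Stroke, and 4 of them had an unadjusted P under 0.05, against 3.35% of all genes, with a median log2 fold change of 0.07. Cnp (chr11:100574904-100591729), an enzyme of the oligodendrocyte membrane, was 422, 502, 425, 536, 476 and 478 CPM in HT + Stroke against 380, 368, 439, 395, 342 and 446 CPM in NT + Stroke. NT + Stroke libraries 3 and 6 lay within the HT + Stroke range (log2 fold change 0.26, SE 0.0818, edgeR adjusted P = 0.654). Opalin, a glycoprotein of mature oligodendrocytes, had a log2 fold change of 0.44, the adhesion protein Mag 0.20 and Mog, on the outermost myelin layer, 0.17. Mbp, which compacts the myelin sheath, had a log2 fold change of 0.15 without reaching that threshold. Without HT + Stroke libraries 1 and 6 the median was 0.06 with 1 member at the threshold, and with the olfactory bulb score as a covariate 0.02 with 1. The bulb and striatal marker sums given above differed between these libraries too, and their part in the result was not tested.

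Other neuronal genes were close to the centre. The 12 neuropeptides and trophic factors had a median log2 fold change of 0.05 with 1 member at the unadjusted threshold, Scg2 (-0.18), the precursor of secretoneurin. Of 17 genes of glutamate and GABA receptors and synaptic proteins, the median was -0.01. Gabra2, a GABA-A receptor subunit, was lower by -0.18 on the log2 scale and Camk2a, the kinase of synaptic potentiation, higher by 0.16. Of 9 cortical projection neuron markers, 7 had a higher mean (median 0.07) and 0 reached the threshold in edgeR. The medians without HT + Stroke libraries 1 and 6 were -0.03 for neuropeptides, -0.10 for synaptic genes and -0.03 for cortical markers. In the BCL2 family, which governs mitochondrial cell death, 9 of 17 tested members had a higher and 8 a lower mean (median 0.02). Hrk (chr5:118164648-118189478), a neuronal member that promotes death by binding BCL-2 and BCL-XL, was 61.2, 66.6, 48.6, 57.7, 53.8 and 60.1 CPM in HT + Stroke against 43.2, 45.1, 47.8, 49.1, 48.5 and 49.3 CPM in NT + Stroke. HT + Stroke library 3 alone lay within the NT + Stroke range (log2 fold change 0.30, SE 0.0724, 95% interval 0.14 to 0.45, edgeR adjusted P = 0.654). Bax, Bak1, Bcl2 and Bcl2l1 had log2 fold changes of 0.10, 0.12, -0.18 and 0.07.

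Interferon-stimulated genes leaned lower, and their median moved toward 0 without the libraries low in injury genes. Of 22 tested, 18 had a lower mean in HT + Stroke and 4 of these had an unadjusted P under 0.05, against 3.89% of all genes, with a median log2 fold change of -0.28. Usp18, which removes ISG15 and restrains the interferon receptor, was 0.866, 2.25, 3.96, 1.62, 1.58 and 1.09 CPM in HT + Stroke against 2.82, 3.08, 4.12, 4.35, 3.20 and 2.91 CPM in NT + Stroke (a log2 fold change of -0.83, SE 0.296). HT + Stroke library 3 was the one that lay among the NT + Stroke values. The antiviral genes Rsad2 and Ifit2 had log2 fold changes of -0.61 and -0.42, and Tgtp1, an interferon-induced GTPase with a near-identical paralog, -0.86. Summed, the list was 154 and 168 CPM in HT + Stroke libraries 1 and 6, where the sham libraries held 146 to 220 CPM, and 222 to 343 CPM in the other HT + Stroke libraries against 231 to 294 CPM in NT + Stroke. Without HT + Stroke libraries 1 and 6 the median was -0.02 with 1 member at the threshold. With the bulb score as a covariate it was -0.0015. Log2 fold changes without HT + Stroke libraries 1 and 6 were -0.79 for Tgtp1, -0.53 for Usp18, -0.46 for Rsad2 and -0.32 for Ifit2.

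For the genes of the infarct itself, the sign of the median depended on HT + Stroke libraries 1 and 6. Disease-associated microglia genes, which mark phagocytes that clear lipid debris, had a lower mean in 14 of 15 members (median log2 fold change -0.10), and the median was 0.19 without those libraries. Of 24 reactive astrocyte genes 20 were lower (median -0.11), and the median was 0.18 without them. Of 14 complement genes 13 were lower (median -0.12), with 0.28 without them, and of 15 genes of the fibrotic matrix 13 were lower (median -0.23), with 0.09 without them. The injury list itself gave -0.16 and 0.31. Among these lists only Cd59a, which protects cells from complement attack, had an unadjusted P under 0.05 (log2 fold change -0.33). Its log2 fold change was -0.20 without HT + Stroke libraries 1 and 6. The intervals were wide. Gfap was 835 ± 490 CPM in HT + Stroke against 895 ± 198 CPM in NT + Stroke (SD, n = 6 per group), with a 95% interval of -1.06 to 0.86 on the log2 scale. Apoe, the lipid carrier of glia, had 5880 ± 2720 and 5900 ± 1440 CPM, and C1qa, a recognition subunit of complement, 231 ± 116 and 235 ± 72.8 CPM. In each of these 3 genes the 2 lowest of the 12 values were those of HT + Stroke libraries 1 and 6.

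**Figure D4:**
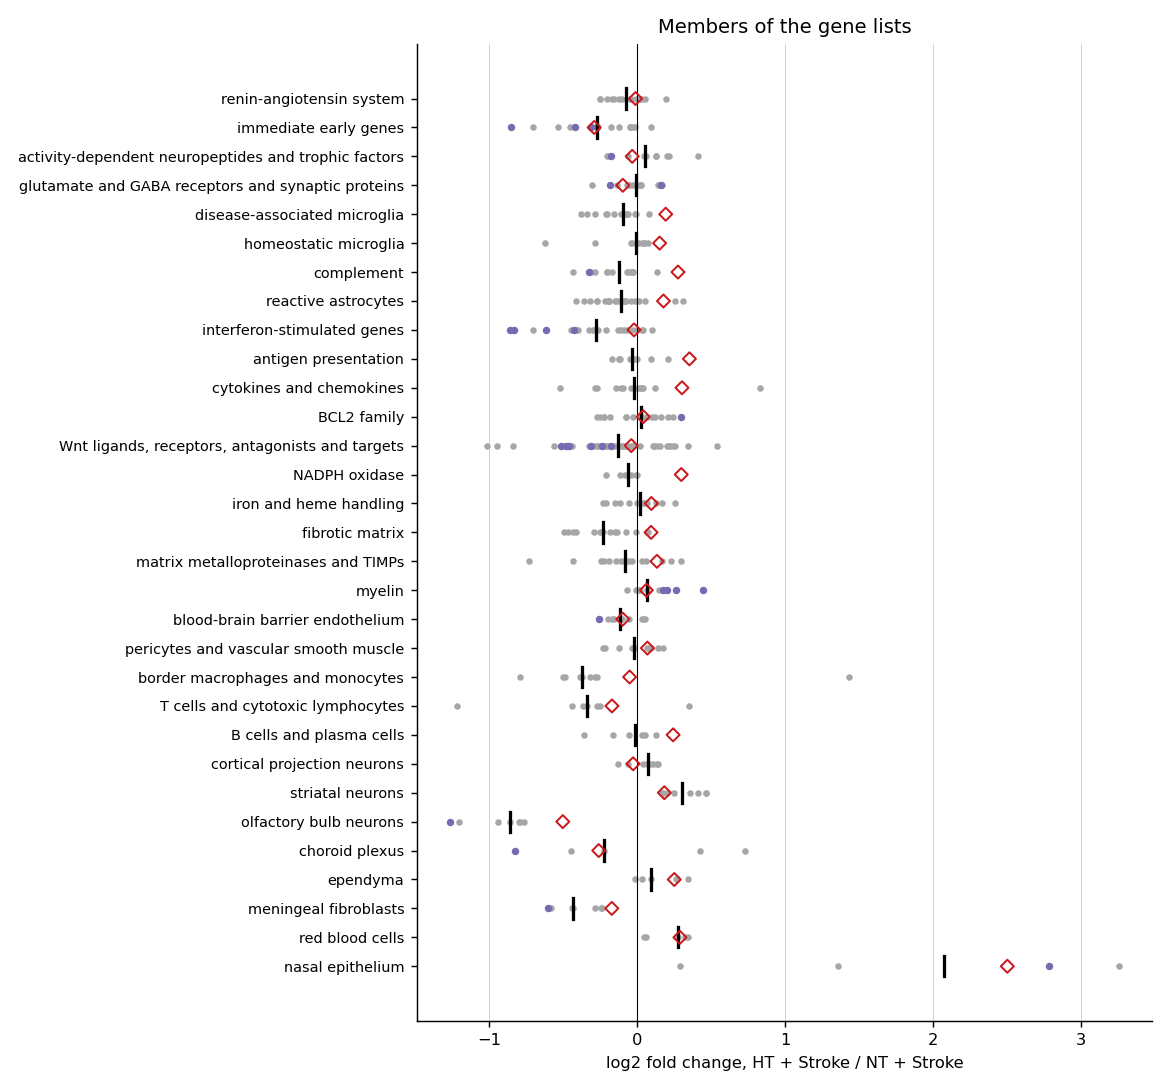
Log2 fold change of HT + Stroke over NT + Stroke for every tested member of the 18 pathway lists and 13 lists of cell types and regions, each a point, with purple points for an unadjusted P under 0.05. Black bars are list medians and red diamonds the medians without HT + Stroke libraries 1 and 6, which move from -0.12 to 0.28 for complement and from -0.27 to -0.29 for immediate early genes.

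Microglia, border and lymphoid genes had list medians that also moved with those libraries. Homeostatic microglia genes had a median of close to 0 (-0.0046) over 11 members and 0.15 without HT + Stroke libraries 1 and 6. Antigen presentation gave -0.04 over 10 members and 0.35 without them, cytokines and chemokines -0.02 over 14 and 0.30, NADPH oxidase subunits, a source of superoxide that angiotensin II can raise in vessels, -0.06 over 6 and 0.30, and matrix metalloproteinases and TIMPs -0.08 over 16 and 0.13. Border macrophage and monocyte markers had a median of -0.37 over 9 members and -0.05 without those libraries. T cell and cytotoxic lymphocyte markers had -0.34 over 7 and -0.17, and B cell and plasma cell markers -0.01 over 6 and 0.24. Iron and heme handling genes, relevant where blood leaks, had a median of 0.02 over 12 members, and red blood cell genes 0.27 over 5, all with a higher mean. None of the members of these lists reached the unadjusted threshold in edgeR with all 12 libraries.

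Wnt genes leaned lower, and so did bulb genes. Of 48 tested ligands, receptors, antagonists and targets, 35 had a lower mean in HT + Stroke, 6 of these had an unadjusted P under 0.05, against 3.89% of all genes, and the median log2 fold change was -0.13. Without HT + Stroke libraries 1 and 6 the median was -0.04 with 4 members lower at that threshold, and with the bulb score as a covariate -0.0023 with 1. The 6 were the ligand Wnt5a (-0.46), the receptors Fzd2 (-0.24) and Ryk (-0.18), the R-spondin receptor Lgr4 (-0.31) and the secreted antagonists Sfrp5 (-0.52) and Frzb (-0.48). Wnt5a was 6.35, 7.75, 12.7, 9.44, 11.8 and 6.10 CPM in HT + Stroke against 17.2, 10.7, 8.90, 12.6, 15.2 and 10.1 CPM in NT + Stroke. Its lowest values were in HT + Stroke libraries 1, 2 and 6, the libraries with the fewest bulb transcripts. With the bulb score as a covariate the log2 fold change was -0.09 for Wnt5a, -0.10 for Frzb, -0.36 for Sfrp5 and -0.15 for Lgr4. It was -0.26 for Fzd2 and -0.16 for Ryk in that fit. Bulb markers had log2 fold changes of -1.26 to -0.76 in all 7 members, with a median of -0.86, striatal markers a median of 0.30 with 8 of 8 higher, and meningeal fibroblast markers a median of -0.43 with 7 of 7 lower. Without HT + Stroke libraries 1 and 6 these medians were -0.50, 0.18 and -0.17. With the bulb score as a covariate the striatal median was -0.23 and the meningeal one -0.09. Foxc1, a meningeal transcription factor, was the member of the last list at the unadjusted threshold (-0.60), and Slc6a3, the dopamine transporter, that of the bulb list (-1.26). Their log2 fold changes were -0.38 and -0.92 without HT + Stroke libraries 1 and 6. The bulb score, scaled over all 24 libraries, had a median of 3.60 in HT + Stroke against 4.69 in NT + Stroke. The covariate fit therefore cannot separate bulb content from treatment, and the part of these regions in the result was not tested.

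Genes of vessels and of the renin-angiotensin system showed small differences. Of 13 endothelial genes of the blood-brain barrier 10 had a lower mean (median log2 fold change -0.11, and -0.10 without HT + Stroke libraries 1 and 6). Abcb1a, the efflux pump P-glycoprotein, was 19.6, 20.5, 28.5, 19.3, 21.4 and 22.9 CPM in HT + Stroke against 33.6, 29.2, 24, 22.4, 23.7 and 25.3 CPM in NT + Stroke (a log2 fold change of -0.26, SE 0.114), with the groups overlapping. Pericyte and smooth muscle genes had a median of -0.02 over 11. Choroid plexus genes had a median of -0.23 over 5 with Ttr at 60 counts in HT + Stroke and 116 in NT + Stroke, and ependymal genes 0.10 over 5. In the renin-angiotensin list 4 of 14 tested members had a higher and 10 a lower mean (median -0.07), and 0 reached the unadjusted threshold in edgeR. Agt, the precursor angiotensinogen made by astrocytes, had a log2 fold change of -0.25 (95% interval -0.69 to 0.19), Ace, which forms angiotensin II, 0.03 (-0.22 to 0.27) and the receptor gene Agtr1a -0.01 (-0.84 to 0.81, on 56 and 61 counts per group). Thop1, a peptidase that cleaves angiotensin I, had the highest value (0.19, -0.02 to 0.41). Ren1, Agtr1b and Agtr2 fell below the count filter, with 3 and 3, 13 and 16, and 35 and 73 counts in HT + Stroke and NT + Stroke.

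The 16 genes that the study's Results name for this comparison were mostly at the edge of detection, and since they were chosen on these libraries their direction is no independent evidence. 12 of them fell below the filter. Over 6 libraries each, Bcl2l14 had 20 counts in HT + Stroke and 2 in NT + Stroke, Hsh2d 29 and 8, Pigr 22 and 1, Grpr 8 and 1, Mup20 4 and 0, and Gucy2d 11 and 3. Bcl2l15 had 33 and 78, Prg2 4 and 56, Pin1rt1 2 and 6, and Pvrig 3 and 7. HT + Stroke library 3, the one with the most nasal epithelium transcripts, held 15 of the 20 counts of Bcl2l14 and 17 of the 22 of Pigr, a transporter of antibodies across epithelia. For Prg2, an eosinophil granule protein, 1 library of NT + Stroke held 33 of the 56 counts. Of the 4 tested, Tbx21, Shisa3 and Nppa had log2 fold changes of -1.22, -1.02 and -1.03. Tbx21, a factor known in T cells and also expressed in mitral and tufted cells of the bulb, was 0.751, 0.983, 5.28, 8.58, 9.81 and 1.61 CPM in HT + Stroke against 18.9, 6.47, 3.17, 16.1, 13.2 and 5.51 CPM in NT + Stroke. Low values fell in libraries with few bulb transcripts. With the bulb score as a covariate the log2 fold change was -0.22 for Tbx21, -0.20 for Shisa3 and -0.0031 for Nppa. The study's Discussion also names Drd4, a dopamine receptor, and the cytokine Il1b. Drd4 had a log2 fold change of 0.71 (95% interval -0.11 to 1.53) at means of 0.762 and 0.463 CPM in HT + Stroke and NT + Stroke, and Il1b one of 0.83 (-0.22 to 1.87) at 1.19 and 0.686 CPM, neither at the unadjusted threshold. Of the 11 tested genes from the study's RT-PCR, 8 had a lower mean (median -0.12, and 0.12 without HT + Stroke libraries 1 and 6).

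Mir132 makes a neuronal microRNA pair that CREB induces. Its 2 mature products, from the hairpin at chr11:75173682-75173747 on the plus strand of GRCm38.p6, are shown with the seed, bases 2 to 8, in capitals, as RefSeq gives them.
miR-132-5p: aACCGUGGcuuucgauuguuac
miR-132-3p: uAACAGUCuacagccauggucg
The seeds differ, so the products do not share a seed family. Poly(A) libraries read the primary transcript rather than these short RNAs. Mir132 had 49 counts in HT + Stroke and 18 in NT + Stroke, too few to test, with 17 of the 49 in 1 library. It was 0.981, 0.173, 0.546, 0.0539, 0.715 and 0.128 CPM in HT + Stroke against 0.0532, 0.126, 0.389, 0.0813, 0.0508 and 0.200 CPM in NT + Stroke. Libraries 1, 3 and 5 were high and the other 3 lay among the NT + Stroke values.

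Nasal epithelium gave the widest fold changes of the comparison, and HT + Stroke library 3 set the largest of them. Bpifb3 and Scgb1c1, secretory genes of the nose, were 304 and 221 CPM in that library and at most 4.23 and 3.45 CPM in the other 11. Their log2 fold changes were 5.03 and 4.55 with it and -1.14 and -0.68 without it. The 4 tested markers of the nasal list had a median of 2.07 with it and -0.16 without it, and 1 of them was higher at an unadjusted P under 0.05 in edgeR. Among these markers Bpifa1 stayed higher, with a log2 fold change of 2.78 with library 3 and 1.35 without it. Cyp2a5 had 3.25 and -0.377, and Omp 0.292 and -0.721. The same library widened the spread. Over the 14206 expressed genes the median SD of log2 CPM was 0.189 in HT + Stroke and 0.146 in NT + Stroke, and 70.3% of genes had the larger SD in HT + Stroke. That share was 55.7% without library 3, 66.1% without libraries 1 and 6, and 50.9% with HT + Stroke libraries 2, 4 and 5. Without library 3, 3491 genes had an unadjusted P under 0.05, with a smallest adjusted P of 0.0972 in edgeR, and 0 passed.

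The same contrast in sham mice, from libraries that this comparison does not use, was set beside it. Of 16581 genes tested there, 1332 (8.03%) had an unadjusted P under 0.05 and 0 an adjusted P under 0.05 in edgeR (smallest 0.406). Over 14156 expressed genes tested in both, the log2 fold changes in stroke and in sham mice had a Pearson correlation of -0.36 across genes, which are not independent, and 44.1% had the same sign. Over all 16407 genes tested in both, 113 were shared at the unadjusted threshold, 9.39% of the 1203 stroke genes and 8.53% of the 1324 sham genes, and 8 of them had the same sign. Bulb genes had opposite medians, 1.12 in sham mice and -0.86 in stroke mice. So did the injury list, with 0.45 and -0.16. Left without HT + Stroke libraries 1 and 6, the correlation was 0 with 54.7% of signs shared, and left without HT + Sham library 6 as well, it was 0.10 with 54.9%. The correlation was no longer negative without these 3 libraries, which were picked after the data were seen. HT + Stroke libraries 1 and 6 were also low in bulb transcripts, and what the change rests on was not tested.

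**Figure D5:**
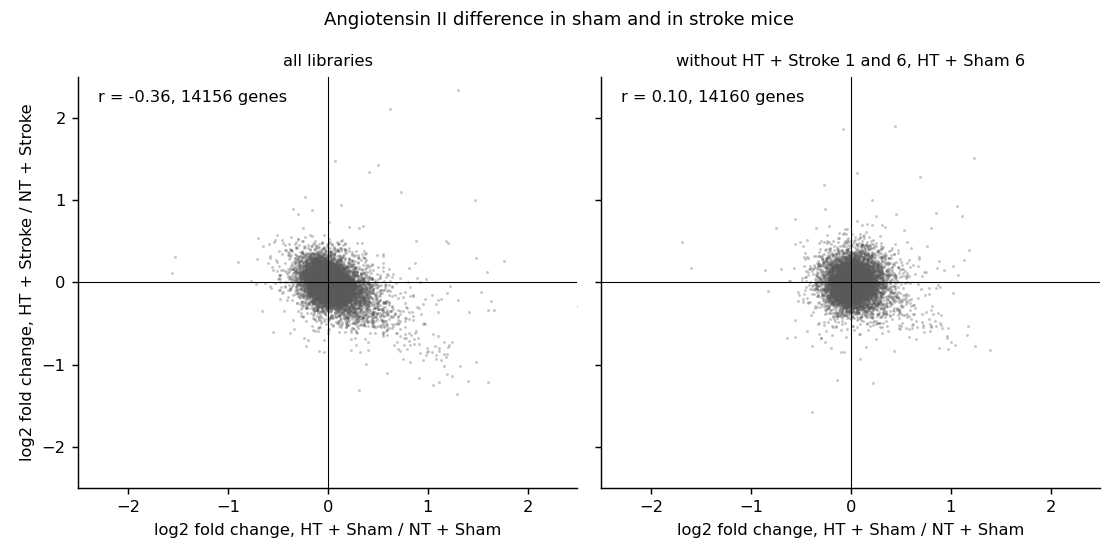
Log2 fold change for angiotensin II in stroke mice against that in sham mice, 1 point per expressed gene, with all libraries (left) and without HT + Stroke libraries 1 and 6 and HT + Sham library 6 (right). The correlation across genes is -0.36 on the left and 0.10 on the right, and 2 and 7 genes lie outside the axes, which end at 2.5.

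Whether the angiotensin II difference after stroke differed from that after sham surgery was tested as an interaction over all 24 libraries. Of 17608 genes, 0 had an adjusted P under 0.05 in edgeR (0%, smallest 0.262) and 1836 had an unadjusted P under 0.05 (10.4%). DESeq2 gave 22 at an adjusted P under 0.05. Among them the synaptotagmin Syt6, with an interaction of -0.82 on the log2 scale, and Vamp1, a vesicle fusion protein, with 0.40, both had an adjusted P = 0.0364 in DESeq2. Without HT + Stroke libraries 1 and 6 and HT + Sham library 6 edgeR gave 0. The interaction was -0.81 for Fos and -0.81 for Npas4, 0.92 for Klc3 and 0.36 for Hrk, with adjusted P of 0.513, 0.322, 0.322 and 0.322 in edgeR.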

How the data were processed

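Poly(A) RNA of a coronal section with the prefrontal cortex was sequenced on the HiSeq 2500. The authors aligned the reads to Ensembl's mouse genome, and deposited raw counts per gene, whole numbers without normalization, in 1 table for each comparison. The aligner and build are not given in the sources used here, nor whether counting used strand. The submitters' processing notes list featureCounts 1.5.0-p3 and DESeq2 1.20.0. Positions are as the tables give them, and the start of Fos and the Mir132 hairpin lie at the same place in RefSeq's GRCm38.p6. In the tables of the stroke and of the sham groups, 48 columns of normalized values or FPKM and the authors' fold changes and P values were not used, nor were 2 other tables.

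Counts of the 6 HT + Stroke and 6 NT + Stroke libraries were tested against each other with edgeR 4.0.16 in R 4.3.3 (filterByExpr with a minimum count of 10 and a minimum total of 15, TMM scaling, robust two-sided quasi-likelihood test, Benjamini-Hochberg adjustment over all genes tested, threshold 0.05). HT + Sham was compared with NT + Sham in the same way, and the interaction was fitted on all 24 libraries. CPM of single genes uses TMM scaling over the stroke libraries in stroke mice, and list scores use a pseudocount of 1. DESeq2 1.42.0, limma 3.58.1 (voom with quality weights), other scalings and filters, injury, striatal and bulb scores as covariates, the column number as a block and each library left out in turn were alternatives. Leaving out HT + Stroke libraries 1 and 6, and HT + Sham library 6, was chosen after seeing the data. The code was tested on simulated data. Library numbers did not pair the groups, since the correlations of same-numbered libraries' deviations were -0.377 to 0.409.

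Named genes are those the study's Results name for the comparison, the 10 highest and 10 lowest genes with no overlap, an average log2 CPM above 1 and an unadjusted P under 0.05, the members of each list at that threshold and the 2 with most counts, the 10 most variable genes and the 3 with the smallest P. Arc, Nr4a1, the other immediate early genes, Acta1, Mylpf, Gapdh, Drd4, Il1b and the list members named for their role were added after their values were seen. The comparison and the 34 gene lists were chosen with earlier results of these data known. Intervals are at 95% and cover the spread between libraries only.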

Additional observations from a re-analysis of the deposited data

Results flagged for a closer look

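Of 190 groups of 6 libraries examined, over list scores, library measures and single genes that the text describes, 12 (6.32%) had a library far from the other 5. Chance gives about 1 in 20 for independent groups. Some of these genes were picked after their values were seen and some lists share members, so the share cannot be set against that rate. The stroke injury score was 4.93 in HT + Sham library 6, above 2.997 to 3.263 in the others of its group. The mean log2(CPM + 1) of matrix metalloproteinases and TIMPs was 3.429 in NT + Stroke library 4, below 3.932 to 4.178 in the rest of its group. Cd5l was 2.77 CPM in that library against 28.5 to 72.2 CPM, and it also had the lowest injury score of NT + Stroke (4.97). Mitochondrial transcripts took 6.98% of the counts in NT + Stroke library 5, above 6.10 to 6.23% in the others.

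Among HT + Stroke libraries, library 3 was highest for Bpifb3, with 304 CPM against at most 1.67 CPM, and for Tgtp1, with 0.819 CPM against 0.324 to 0.404 CPM. Library 6 was highest for Acta1, with 82.6 CPM against at most 16.9 CPM, and for Mylpf, with 19.3 CPM against 1.21 to 1.73 CPM. Library 1 was highest for Arc, with 123 CPM against 44.1 to 59.8 CPM, and library 5 for Scg2, with 251 CPM against 198 to 208 CPM. Slc9a2 was 8.78 CPM in NT + Stroke library 4, against 7.34 to 7.62 CPM, and Tmem67 was 9.30 CPM in NT + Stroke library 2, against 7.46 to 7.97 CPM. HT + Stroke libraries 1 and 6, both low in injury genes, were not set apart by this measure in that score, since each is the nearest to the other.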

How the results depend on the processing

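The number of genes of HT + Stroke vs NT + Stroke with an adjusted P under 0.05 in edgeR was 0, and it was 0 in each of 12 alternatives (DESeq2 and limma voom among them) and in each of the 12 fits without 1 library. The number at an unadjusted P under 0.05 was 1230, and moved to 2513 with limma voom and quality weights, 2143 with every gene that had at least 1 count, 504 with the olfactory bulb score as a covariate, and 796 without HT + Stroke libraries 1 and 6. With 1 library left out it ranged from 630 (without NT + Stroke library 1) to 3491 (without HT + Stroke library 3). It was 732 without NT + Stroke library 5 and 773 without HT + Stroke library 2. In the sham mice, 1332 became 2367 with every gene that had at least 1 count, and 775 (without HT + Sham library 6) to 1897 (without HT + Sham library 5) with 1 library left out. The interaction gave 0 in edgeR, also in every fit without 1 library, and 22 in DESeq2. The causes were not tested.

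The log2 fold change of Bpifb3, 5.03, was -0.623 with quality weights and -1.14 to 5.58 with 1 library left out. That of Scgb1c1, 4.55, was -0.579 and -0.678 to 4.90. The low ends were without HT + Stroke library 3. The correlation across genes with the sham difference, -0.356, was 0 without HT + Stroke libraries 1 and 6, 0.099 without HT + Sham library 6 as well, and -0.458 to -0.143 with 1 library left out. Of 3174 values of 133 named genes under alternatives, 2980 kept the sign, as did 712 of 816 medians of the 34 lists.

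The library numbers were also used as a replicate block. With this pairing 1187 genes of HT + Stroke vs NT + Stroke had an unadjusted P under 0.05 and 0 passed adjustment, the interaction gave 0 and the sham mice 1319. Of the 6 numbers, only that of library 2 marked the best correlated partner in the other group. Genes with few counts, Mir132, Agtr2 and Bcl2l14 among them, were not tested at this depth.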

Other observations

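Gapdh, a glycolytic enzyme often used as a reference gene in RT-PCR, lay at high and low levels in both groups. It was 331, 23.1, 21.3, 217, 249 and 374 CPM in the HT + Stroke libraries, and 298, 42.8, 322, 17.4, 37.6 and 40.9 CPM in those of NT + Stroke. It has many near-identical pseudogene copies, so its count is uncertain. Both levels occurred in both treatments, and HT + Stroke libraries 1 and 6, low in injury genes, were among the high ones.

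Muscle transcripts were high in HT + Stroke library 6. Mylpf, a myosin light chain of fast skeletal muscle, was 19.3 CPM there against 0.863 to 2.20 CPM in the other 11 stroke libraries, as Acta1 was.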
